A study of Mus musculus with 12 samples.

Results

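The cytosolic ribosomal protein genes encode the proteins of the small (Rps) and large (Rpl) subunits of the ribosome that translates nuclear mRNAs. Members were the genes whose mouse symbol starts with Rps or Rpl and a digit, or is Rplp0, Rplp1, Rplp2 or Rpsa, leaving out pseudogene symbols and the S6 kinases, with at least 100 counts summed over the 12 libraries. Of 55359 genes in the table, 93 carried such a symbol and 86 of these reached the count minimum. The 7 below it were Rps12l1 and Rpl10l with 0 counts each, Rpl39l with 6, Rpl3l with 35, Rpl32l with 46, Rps3a2 with 79 and Rps3a3 with 89. The members comprised 43 large subunit genes, 31 small subunit genes, the 3 genes of the P stalk, 8 paralogues or like genes and Rps19bp1. The symbol rule admits Rps19bp1, but its product binds Rps19 and is not a ribosomal protein. The subunit and stalk genes, 77 in all, are called standard genes here. The symbol rule does not reach every gene of the ribosome, Fau and Rack1 among them.

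The 12 livers came from C57BL/6NTac males, 4 to a group. The lean group was kept on normal chow and given control mRNA in lipid nanoparticles (LNPs). The HFD control group was fed a high-fat diet with control mRNA-LNPs, and the NM-FGF19 group the same diet with mRNA-LNPs encoding a non-mitogenic form of the hormone FGF19. Dosing was weekly over 6 weeks, with tissue collected 24 hours past the final dose. All 3 groups therefore carried mRNA-LNPs, and no untreated group was analysed here. The stated 21 weeks on diet ahead of dosing, 28 weeks of feeding and age of 24 weeks cannot all hold for the same mice. The labels also name the HFD control columns mOX40L while describing their treatment as control mRNA. Each replicate is labelled as a mouse, with no cage, litter or extraction day, so the p-values below measure the spread between these mice only.

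Each ribosome holds a single copy of most of its proteins, and cells make them in matched amounts. Their mRNAs begin with a tract of pyrimidines directly at the 5′ end, the TOP motif, through which the kinase mTORC1 and the protein Larp1 control their translation. That control acts mostly on translation, so mRNA levels as measured here do not report how much protein was made. Hepatocytes, the main cells of the liver and the source of most plasma proteins, carry large numbers of ribosomes.

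The start-site windows below are shown because the pyrimidine tract is the feature through which the family is known to be controlled together. RefSeq windows on the mouse build GRCm38.p6 were found for 64 of the 86 members, 75 windows in all, and a member counts as holding a tract where any of its windows does. Each printed window holds 15 bases before the annotated start and 15 from it on, in the direction of transcription, and capitals mark a tract, defined as a C followed by at least 4 letters that are each C or T, with its first base within 5 of the start. Rps6 lies at chr4:86857353-86857382 (minus strand), Rps18 at chr17:33955651-33955680 (minus), Rps27 at chr3:90213634-90213663 (minus) and Rpl13a at chr7:45128731-45128760 (minus). Rps24 lies at chr14:24490663-24490692 (plus), Rpl35a at chr16:33056467-33056496 (plus) and the paralogue Rpl22l1 at chr3:28805493-28805522 (plus). The other annotated starts of Rps24 and Rpl35a, 1 and 2 in number, held no tract. The windows of Rplp0 at chr5:115559452-115559481 (plus), Rpl41 at chr10:128549154-128549183 (minus) and Rpl36al at chr12:69184053-69184082 (minus) held no tract by this definition.
Rps6: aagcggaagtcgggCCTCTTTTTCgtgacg
Rps18: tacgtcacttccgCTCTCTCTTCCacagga
Rps27: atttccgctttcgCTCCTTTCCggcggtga
Rpl13a: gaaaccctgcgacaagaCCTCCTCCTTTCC
Rps24: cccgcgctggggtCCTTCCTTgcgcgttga
Rpl35a: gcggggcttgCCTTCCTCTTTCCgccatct
Rpl22l1: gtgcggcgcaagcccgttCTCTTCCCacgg
Rplp0: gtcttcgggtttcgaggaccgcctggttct
Rpl41: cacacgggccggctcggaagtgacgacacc
Rpl36al: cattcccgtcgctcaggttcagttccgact

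A tract was present in 30 of the 64 members, or 46.9% (95% exact binomial interval 34.3 to 59.8), against 23.7% of the 11060 other tested genes with a window. Next, the first C of the definition was required to lie exactly at the annotated start. The shares were then 21.9% of members and 2.97% of other genes. Such a C can lie inside a run of pyrimidines that begins earlier, as in Rps6, Rps18 and Rps27. With that C within 10 bases of the start the shares were 57.8% and 37.2%. The letters CTTTC, all of which also meet the tract definition, began within 10 bases of the start on the sense strand in 23.4% of members and 3.55% of other genes. The letters CCGGAAG, whose reverse complement can overlap a tract, occurred on either strand of the 300-base windows in 39.1% of members and 18.6% of other genes. TATAAA on the sense strand 40 to 20 bases before the start was found in 1.56% of members and 1.69% of other genes. Members were thus richer in the tract at every distance tried, while most members had no C opening such a stretch exactly at an annotated start. A match is a run of letters in a window and was not tied to any value in these livers.

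The libraries held 23743415 to 33257260 counted reads. All 6 hepatocyte markers were detected in each group, their levels given in CPM (counts scaled to a common library size with TMM factors). They summed to 74299 to 86388 CPM in lean, 47568 to 72316 in HFD control and 82157 to 125540 in NM-FGF19 livers. Alb was the largest of them, with means of 54535, 33241 and 75215 CPM in these groups. Not every marker followed Alb, with means of 6104, 7912 and 6303 CPM for Cyp2e1 and 4689, 4743 and 4764 for Ttr. Over all tested genes, lean 3, HFD control 3 and NM-FGF19 4 lay farthest from their groups on the principal components, in that order. Of 15274 genes tested, 1272 differed between HFD control and lean at an adjusted p under 0.05, 66 between NM-FGF19 and HFD control and 228 between NM-FGF19 and lean. These thresholds refer throughout to the Benjamini-Hochberg adjusted p of edgeR's quasi-likelihood test, and a gene that passes is referred to as called.

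Ribosomal protein mRNAs took about 1% of the counts in every group. Their share was 0.987, 1.12, 0.749 and 1.21% in lean 1 to 4, 1.13, 0.941, 1.32 and 1.01% in HFD control 1 to 4, and 1.00, 0.875, 0.838 and 1.45% in NM-FGF19 1 to 4. Group means were 1.02% ± 0.201, 1.10% ± 0.167 and 1.04% ± 0.281 (SD, n = 4 each), so the groups overlapped widely and their means differed by less than the spread between mice. The lowest and the highest mouse of each group differed by more than any pair of group means did. Large subunit, small subunit and P stalk counts moved together, with the large subunit and stalk genes together holding 1.35 to 1.48 times the counts of the small subunit genes in all 12 libraries. That ratio was lowest in NM-FGF19 4 and HFD control 3, which had the highest family shares of their groups. It was highest in lean 3, which had the lowest share of all libraries. Lean 4, with the highest share of its group, did not follow this order, at 1.43 against 1.40 in lean 1 and 1.42 in lean 2.

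**Figure D1:**
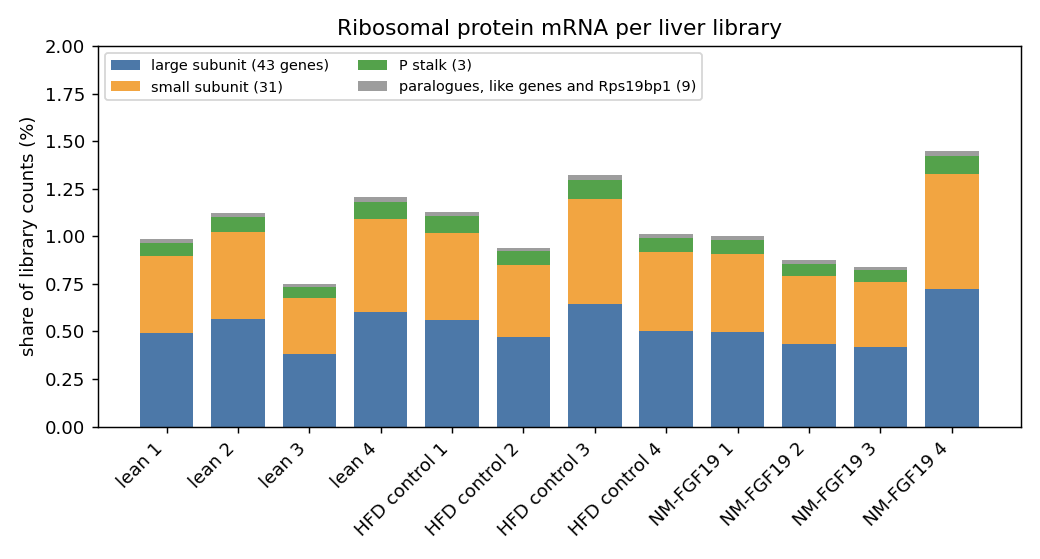
Share of each library's counts in the 86 genes (y axis, percent), one bar per liver library, stacked by large subunit, small subunit, P stalk and the remaining genes. The 3 groups overlap, and NM-FGF19 4 at 1.45% and lean 3 at 0.749% are the extremes.

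The level of single members covered a wide range. Per kilobase of exon, averaged over all 12 livers, the highest were Rplp1 at 579 CPM per kb, Rps15 at 283, Rpl4 at 245, Rpl36 at 234 and Rps2 at 228. Rplp1 and Rplp2 form with Rplp0 the P stalk, the flexible arm of the large subunit that recruits the translation factors. The median was 44.3 CPM per kb over the large subunit genes and 67.6 over the small subunit genes, while the 8 paralogues and like genes had a median of 6.44. Rps27l, a paralogue of Rps27 known in human cells as a p53 target, was the exception among them at 133 CPM per kb, against 97.0 for Rps27 itself. Exon lengths came from GENCODE M21, which need not be the annotation behind the counts, so this order is approximate. How reads matching several gene copies were counted is also not given in the sources used here. The levels of any members with such copies, and their order, could depend on it.

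The lowest standard genes shared a feature of their loci. Rpl13a (5.73 CPM per kb), Rpl24 (2.56) and Rps10 (1.19) had 35.4, 47.0 and 20.6% of their exon sequence covered by another annotated gene on the same strand, as did Rpl36al (3.74 CPM per kb) with 24.5%. A limit of 20%, chosen after the values were seen, was met by these 4 members only, whose median of 3.15 CPM per kb compared with 58.1 for the other 82. Every one of the 74 standard genes under that limit had at least 13.5 CPM per kb. The sources used here do not give how reads over 2 genes or over several copies were counted, and the levels of these 4 genes are uncertain. Rpl13a, a common reference gene for quantitative PCR, stood at 8.09 to 17.1 CPM in single livers. Of the annotated genes that overlap the 4 members, Gm45713, Mir5121, Gm49383, Gm28037 and RPS10-NUDT3 held 0 counts in all libraries together and Gm15420 held 27. The part of the overlap in these low levels was not tested. Members with near-identical copies elsewhere in the genome, such as Rps27rt, Rpl37rt and Rpl6l, are uncertain for the same reason.

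Between HFD control and lean livers, no ribosomal protein gene was called higher and only Rpl36al was called lower. The background over all tested genes was 5.04% called higher and 3.29% called lower, and the 1 call made up 1.16% of the members. At an unadjusted p under 0.05 there were 6 members, against 24.6% of all genes. The member log2 changes had a median of -0.16, where all genes had -0.02, and 79 of 86 lay below 0 against 52.5% of all genes, but with library totals alone as the scaling the member median became 0.15 while that of all genes became 0.29. Relative to the median of all genes the members stood 0.14 lower under both scalings, and the family median varied between mice of the same group with an SD of 0.25. Without lean 3 and HFD control 3, a choice made after seeing the data, the member median was -0.28 and the distance from all genes -0.30, with no member called. That distance was -0.22 without HFD control 3 alone, -0.21 without lean 3 alone and -0.06 without lean 4. In bulk liver, fewer cells of a type and less RNA per cell cannot be told apart.

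Rpl36al, a paralogue of the large subunit gene Rpl36a, was measured at 4.79, 7.10, 5.66 and 7.47 CPM in lean 1 to 4, at 3.83, 3.62, 4.37 and 4.01 in HFD control 1 to 4, and at 4.43, 5.15, 4.38 and 5.87 in NM-FGF19 1 to 4. Every HFD control liver lay below every lean liver, and every NM-FGF19 liver lay above every HFD control liver, the last by a margin of only 4.38 against 4.37. Its log2 change on high-fat diet was -0.66 ± 0.19 (SE), with an adjusted p of 0.0453 by edgeR's quasi-likelihood test. The NM-FGF19 livers differed from HFD control by 0.32 ± 0.18 with an adjusted p of 0.674, which was not called. The diet call was marginal, since it held when lean 1 was left out (adjusted p = 0.0303) and was lost without any other single lean or HFD control library (0.0609 to 0.123). Its adjusted p was 0.256 with library totals alone, 0.209 when scaled to the family's own counts, 0.0559 by limma voom, 0.00902 by DESeq2 and 0.0865 without lean 3 and HFD control 3. Rpl36a itself was at 45.35 to 63.6 CPM in lean, 41.0 to 56.0 in HFD control and 42.5 to 67.6 in NM-FGF19 livers, with overlapping groups and a diet change of -0.16 ± 0.16.

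Among members of at least 10 CPM on average, the lowest diet changes belonged to Rpl41, Rpl17, Rps25 and Rps24, and none of these passed the test. Rpl41, whose product is the smallest ribosomal protein, was at 216, 421, 261 and 367 CPM in lean 1 to 4, at 171, 165, 290.5 and 226 in HFD control 1 to 4, and at 224, 152, 131 and 485 in NM-FGF19 1 to 4. Its groups overlapped, and the range within NM-FGF19 alone exceeded the distance between any 2 group means. The diet change of Rpl41 was -0.57 ± 0.38 (adjusted p = 0.396 by edgeR's quasi-likelihood test). Rpl17, which lines the exit tunnel for the growing protein chain, was estimated at -0.47 ± 0.28, Rps25 at -0.45 ± 0.25 and Rps24 at -0.41 ± 0.32. All 4 kept a negative sign under library totals and under family scaling.

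At the other end stood Rps4l, Rps29, Rpl31 and Rpl11, again with no call. Rps4l, a gene like the small subunit gene Rps4x, was at 7.39, 7.24, 8.87 and 8.91 CPM in lean 1 to 4, at 10.001, 14.9, 9.15 and 11.6 in HFD control 1 to 4, and at 10.1, 12.6, 12.5 and 13.3 in NM-FGF19 1 to 4. All 8 livers on high-fat diet exceeded all 4 lean livers. Its diet change was 0.49 ± 0.17 with an adjusted p of 0.0856 by edgeR's quasi-likelihood test, and it passed with library totals alone, at 0.80 and 0.0062. Rps29, a zinc-binding protein of the small subunit, was estimated at 0.28 ± 0.15 (adjusted p = 0.272) and passed with library totals alone at 0.58 and 0.0493. Rpl31 and Rpl11, the latter known to bind the p53 regulator Mdm2 when free of ribosomes, had estimates of 0.08 ± 0.18 and 0.05 ± 0.15.

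Groups that did not overlap were also few. In the diet comparison Rps4l was the only member wholly higher, against a background of 8.4%, and Rpl36al, Rpl4 and Rps10 were wholly lower, against 6.89%. Rpl4, a large subunit protein that reaches into the exit tunnel, stood at 495 to 626 CPM in lean and 446 to 461 in HFD control livers, and its HFD control values, 453 ± 6.35 (SD, n = 4), had the lowest coefficient of variation of the 86 members in that group, 1.40%. Rps10, one of the overlapped loci above, stood at 3.10 to 3.77 and 2.24 to 2.93 CPM. Neither was called.

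**Figure D2:**
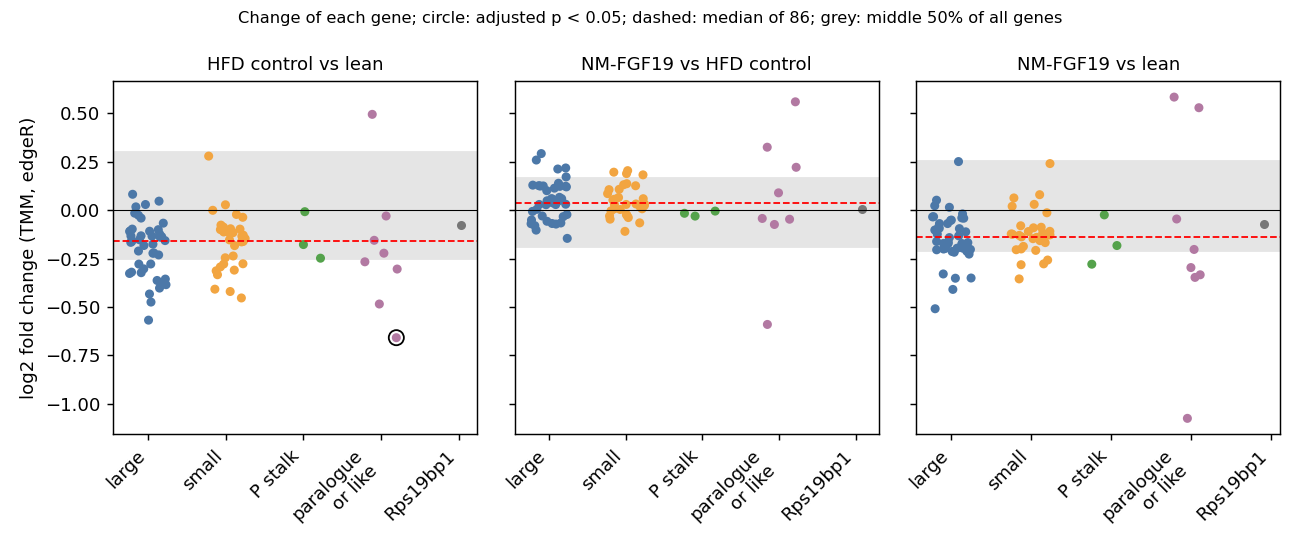
Log2 fold change of each of the 86 genes (dots, by class) in the 3 comparisons, with TMM scaling. The dashed line is their median, the grey band holds the middle 50% of all tested genes, and the circle marks Rpl36al, the only member called. Under library totals alone the medians change sign, to 0.15, -0.09 and 0.04.

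The members commonly used as references or of known signalling roles showed the same lack of separation. Rplp0 was at 385 ± 46.6 CPM in lean, 340 ± 30.9 in HFD control and 339 ± 57.3 in NM-FGF19 livers (SD, n = 4), with a diet change of -0.18 ± 0.15. Rps6, the substrate of the S6 kinases downstream of mTORC1, was at 93.1 ± 11.8, 85.9 ± 7.88 and 94.4 ± 19.9 CPM, with a diet change of -0.12 ± 0.15. The diet change of Rps18 was -0.24 ± 0.20, that of Rpsa, also known as the laminin receptor, was -0.28 ± 0.15, and that of Rpl13a was -0.36 ± 0.20. Of these 5, only Rpl13a stayed below 0 with library totals alone, where Rplp0 read 0.14, Rps6 0.19, Rps18 0.07 and Rpsa 0.04. Rpl3, which shapes the peptidyl transferase centre, was estimated at -0.04 ± 0.14 and at 0.27 with library totals alone. Rps27 and its paralogue Rps27l were estimated at -0.33 ± 0.20 and -0.22 ± 0.27, and the log2 ratio of Rps27l to Rps27 was 0.05 ± 0.16, 0.17 ± 0.21 and 0.02 ± 0.18 (SD, n = 4) in the lean, HFD control and NM-FGF19 groups. With library totals alone Rps27l read 0.09.

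Between NM-FGF19 and HFD control livers, no member was called in either direction by edgeR, by DESeq2 or by limma voom. The background was 0.282% of all genes called higher and 0.151% called lower, so few calls were to be had in a family of this size. At an unadjusted p under 0.05 there was 1 member, Rpl22l1, against 8.94% of all genes. The member median was 0.03 (all genes -0.00) and 58 of 86 changes were above 0, against 49.9% of all genes. The direction did not hold without NM-FGF19 4, where the median was -0.16, without HFD control 2, where it was -0.01, or with library totals alone, where it was -0.09 and all genes had -0.13. The 79 members of at least 10 CPM had log2 changes between -0.15 and 0.56, with a median half-width of 0.36 for their 95% intervals. Only Rpl36al had groups that did not overlap, with a background of 3.23% for higher, and no member was wholly lower, where all genes had 2.38%.

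Rpl22l1 is the paralogue of Rpl22, a large subunit protein, and can take its place in the ribosome. It was at 11.6, 17.3, 10.7 and 14.2 CPM in lean 1 to 4, at 12.2, 11.1, 16.6 and 12.7 in HFD control 1 to 4, and at 20.1, 15.8, 14.8 and 26.9 in NM-FGF19 1 to 4. The NM-FGF19 group held the 2 highest livers of all, but its 2 lower livers lay within the range of the other groups. Its change on treatment was 0.56 ± 0.21, with a 95% interval of 0.11 to 1.01 and an adjusted p of 0.425 by edgeR's quasi-likelihood test. Rpl22 was at 113 ± 17.4, 104 ± 13.6 and 96.5 ± 19.7 CPM in the lean, HFD control and NM-FGF19 groups (SD, n = 4). The log2 ratio of Rpl22l1 to Rpl22 counts was -3.24 to -2.75 in lean, -3.07 to -2.86 in HFD control and -2.59 to -2.01 in NM-FGF19 livers. That ratio was thus higher in all 4 NM-FGF19 livers than in all 8 others, a description made after the values were seen.

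The further members at either end of the treatment comparison had small estimates. Rpl3 was at 142 ± 15.4 CPM in lean, 138 ± 8.33 in HFD control and 169 ± 31.2 in NM-FGF19 livers (SD, n = 4), a change of 0.29 ± 0.14 on treatment. Rpl41 had 0.22 ± 0.38, which became -0.33 without NM-FGF19 4, and Rpl23a, a protein at the mouth of the exit tunnel, had 0.21 ± 0.21. The lowest estimates were -0.15 ± 0.20 for Rpl13a, -0.11 ± 0.24 for Rps19, -0.10 ± 0.16 for Rpl22 and -0.08 ± 0.15 for Rpl11. Rplp0 gave -0.01 ± 0.15, with a 95% interval of 0.799- to 1.24-fold. None of these was called, and all 4 lowest estimates lay within their own standard errors.

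Between NM-FGF19 and lean livers, again no member was called, at backgrounds of 1.01% higher and 0.484% lower over all genes. This comparison shares its lean livers with the diet comparison and its NM-FGF19 livers with the treatment comparison. There were 5 members at an unadjusted p under 0.05, against 16.7% of all genes, and limma voom called none while DESeq2 called Rps4l (0.58, adjusted p = 0.0346). The member median was -0.14 (all genes -0.01), with 75 of 86 changes below 0 against 51.6% of all genes, and 0.04 with library totals alone (all genes 0.17). The highest estimates were 0.58 ± 0.17 for Rps4l (adjusted p = 0.0998 by edgeR's quasi-likelihood test), 0.53 ± 0.21 for Rpl22l1, 0.25 ± 0.14 for Rpl3 and 0.24 ± 0.15 for Rps29. The lowest were -0.51 ± 0.20 for Rpl13a, -0.41 ± 0.20 for Rpl35a, -0.35 ± 0.28 for Rpl17 and -0.35 ± 0.38 for Rpl41. Rps4l was the only member whose livers were all higher (background 5.46%), and Rps10 and Rpl7l1 were wholly lower (background 4.84%). Rpl7l1, a gene like Rpl7 whose product is known from ribosome assembly, was at 60.7 to 85.8 CPM in lean and 50.4 to 58.3 in NM-FGF19 livers. Leaving out NM-FGF19 4 moved the member median to -0.31, and leaving out NM-FGF19 3 moved it to -0.05.

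**Figure D3:**
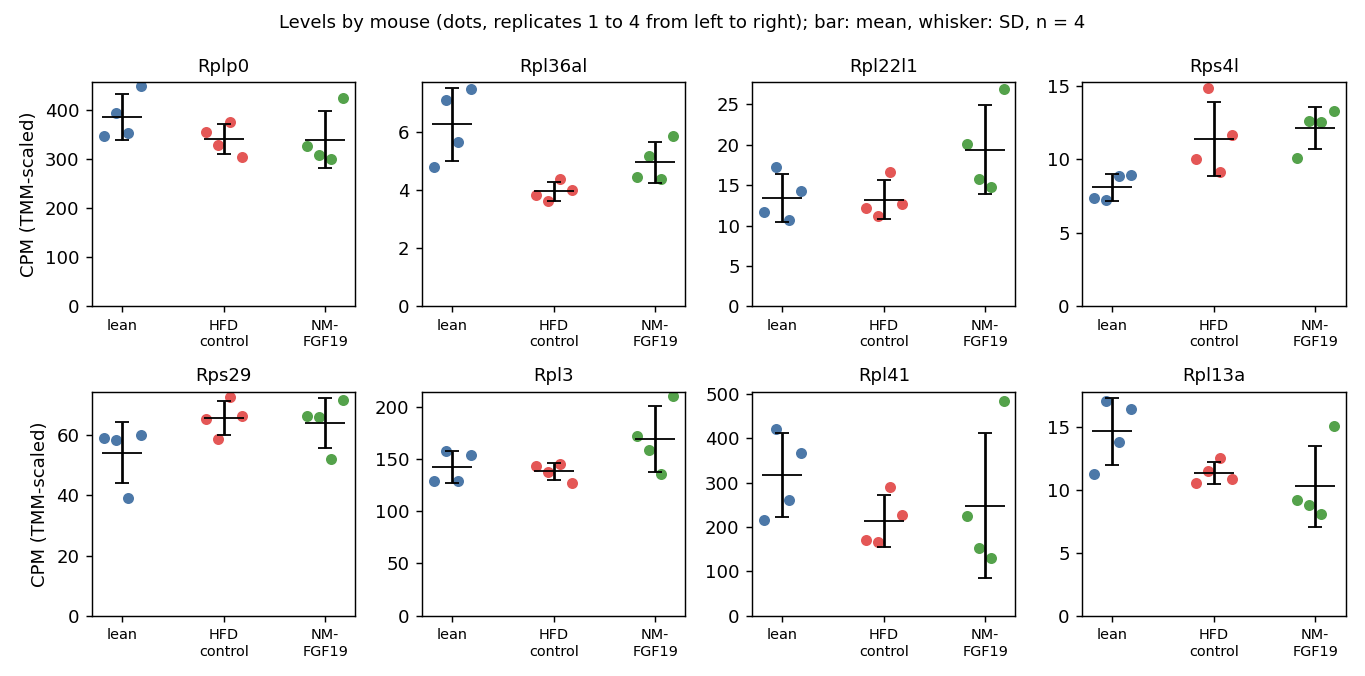
Levels of 8 members in single livers (y axis, TMM-scaled CPM, from 0), by group, with replicates 1 to 4 from left to right, the mean (bar) and SD (whisker), n = 4. Rpl36al separates HFD control from lean, Rps4l is lowest in the 4 lean livers, and Rpl41 ranges from 131 to 485 CPM within NM-FGF19.

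What varied most was the family as a whole, from mouse to mouse within a group. In lean 4, 84 of the 86 members lay above the lean mean of their log2 CPM, in lean 2 73 did, in lean 1 6 and in lean 3 only 3. In HFD control 1 to 4 the numbers were 30, 3, 83 and 29, and in NM-FGF19 1 to 4 they were 19, 10, 3 and 84. Over all tested genes between 47.1 and 52.8% lay above the group mean in any library, and over the 8094 genes of at least 10 CPM between 42.1% in NM-FGF19 4 and 58.0% in NM-FGF19 2. In most libraries the members lay largely on one side of the mean, which genes at large did not. The deviations of a gene balance out within its group, so a liver far above the mean pushes the others below it. The median member lay 0.44 above its group mean in NM-FGF19 4, 0.22 above it in HFD control 3, 0.21 above it in lean 4 and 0.23 below it in lean 3. These displacements were larger than the member medians of all 3 comparisons in NM-FGF19 4, HFD control 3, lean 3 and lean 4.

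**Figure D4:**
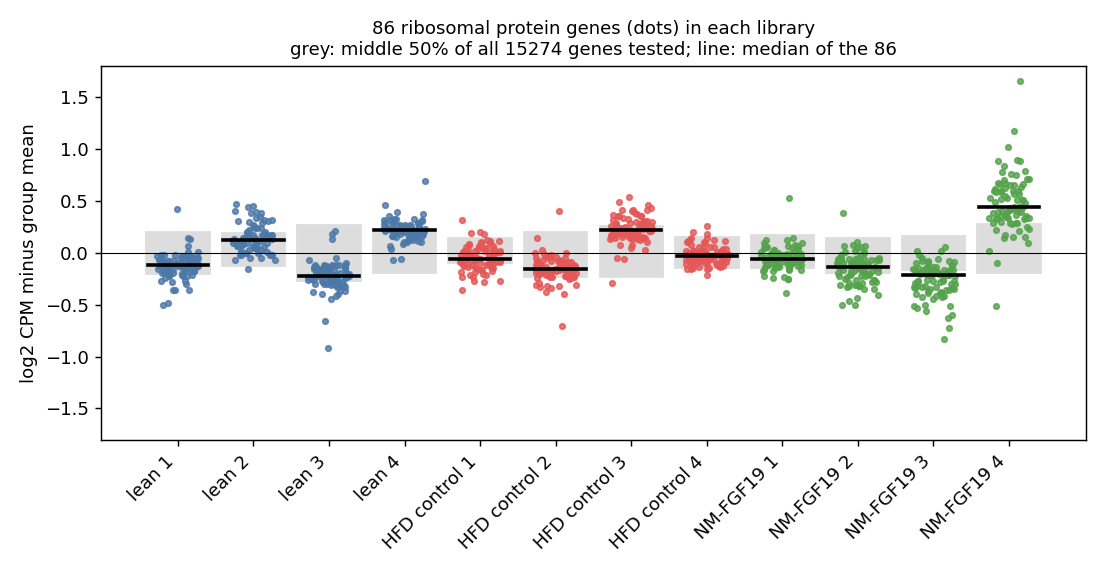
Log2 CPM of each of the 86 genes minus its own group mean (y axis), per library. Black lines are the medians of the 86 genes and grey bands hold the middle 50% of all 15274 tested genes. In NM-FGF19 4, HFD control 3 and lean 4 nearly all dots lie above 0, and in lean 3, HFD control 2 and NM-FGF19 3 nearly all lie below.

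Other measures moved with some of these libraries. All 4 stellate cell markers were detected in each group and none was at 0. Their summed level was 156 to 209 CPM in lean, 262 to 630 in HFD control and 236 to 564 in NM-FGF19 livers. It was highest in HFD control 3 (630) and NM-FGF19 4 (564), the livers with the highest family shares, but lowest of all in lean 4 (156), the lean liver with the highest share. The 8 macrophage markers, none at 0, summed to 358 to 464 CPM in lean and 220 to 563 in HFD control livers. In NM-FGF19 livers they summed to 184 to 314. HFD control 3 stood at 563 and NM-FGF19 4 at 270. These sums combine markers that went opposite ways. From lean to HFD control, mean Clec4f fell from 166 to 27.9 CPM and Csf1r from 101 to 74.8. The other macrophage markers rose, Gpnmb from 0.297 to 42.8 and Cd68 from 19.8 to 41.9. The 3 neutrophil markers, none at 0 in all libraries, summed to 13.4 to 59.4 CPM in lean, 8.39 to 11.7 in HFD control and 2.46 to 14.99 in NM-FGF19 livers, with the highest sums of their groups in lean 3 and NM-FGF19 4. The median gene of the list of other TOP mRNAs stood 0.24 above its group mean in NM-FGF19 4, 0.11 above it in HFD control 3 and in lean 4, and at -0.09 from it in lean 3. The median ribosome biogenesis gene went against the family in NM-FGF19 4 (-0.13), HFD control 3 (-0.04) and lean 3 (0.15). It went with the family in lean 4 (0.21). The TMM factors ran from 0.779 in lean 3 to 1.17, and the sequenced total of NM-FGF19 4 lay within the range of its group. The part of these measures in the family's displacement was not tested.

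Most members kept nearly constant proportions to each other through these swings. The median within-group SD of log2 CPM over the members was 0.24 with TMM scaling and 0.11 when each gene was scaled to the family's summed counts, and it was smaller in 79 of 86 members. Part of that fall follows from the construction, because the members make up the total they are scaled to. Over all tested genes the median SD was 0.32 with TMM and 0.41 under the same scaling, and 2793 of 15274 became smaller. Tested genes of at least 10 CPM had a median SD of 0.22 with TMM scaling, slightly below that of the members. Rps9 and Rps7 tracked the family most closely, with SDs of 0.04 and 0.05 after scaling, from 0.23 and 0.23 before. Rps9 was at 199 to 279.5 CPM in lean, 208 to 272 in HFD control and 191 to 295 in NM-FGF19 livers.

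The 7 members that did not become steadier were Rpl4, Rpl30, Rpl7l1, Rps19bp1, Rps10, Rps4l and Rpl6l. Rps4l stood 0.29 below its group mean in HFD control 3, where the median member stood 0.22 above it, and Rpl7l1 stood 0.10 below its mean in NM-FGF19 4. Rpl7l1, Rps4l and Rpl6l are like genes, Rps19bp1 is no ribosomal protein and Rps10 is an overlapped locus, so Rpl4 and Rpl30 were the standard genes among the 7 with no such reservation. Rpl6l and Rps10 also had few counts, 122 and 954 over the 12 libraries, which by itself limits how steady they can be. At the other end, some standard genes swung further than the family. The within-group SD was 0.59 for Rpl41, 0.49 for Rps24, 0.46 for Rpl35, 0.46 for Rps12, 0.44 for Rpl34 and 0.44 for Rpl17. In NM-FGF19 4, Rpl41 lay 1.17 above its group mean, Rps24 1.01, Rpl17 0.89, Rpl34 0.89 and Rpl35 0.88, against 0.44 for the median member.

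**Figure D5:**
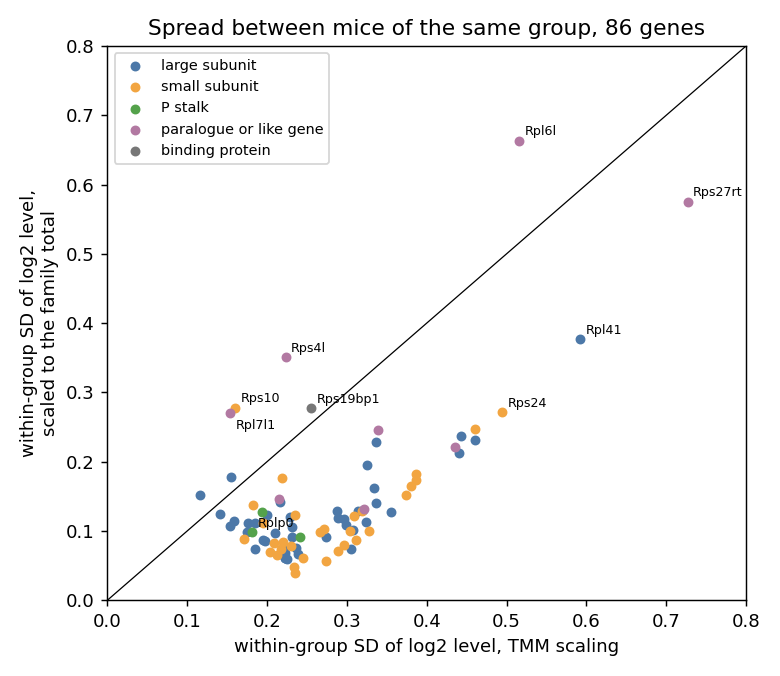
Spread between mice of the same group for each of the 86 genes, as the pooled within-group SD of log2 level, with TMM scaling (x axis) and scaled to the family's summed counts (y axis). The diagonal marks equal spread. Dots below it, 79 of 86, are steadier relative to the family, and Rpl41 and Rps24 are far to the right.

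Read relative to the family's own counts, the paralogue Rpl22l1 was the only member called, and only between NM-FGF19 and lean livers. No member was called between HFD control and lean, at backgrounds of 7.56% higher and 0.969% lower, or between NM-FGF19 and HFD control, at 0.21% and 0.118%. Between NM-FGF19 and lean Rpl22l1 was called higher (background 2.66%), at 0.67 ± 0.17 with an adjusted p of 0.0446 by edgeR's quasi-likelihood test, and no member was called lower (background 0.268%). With TMM scaling the same comparison gave an adjusted p of 0.224, so this call belongs to the family scaling only. Rps4l reached 0.75 ± 0.25 on this scale with an adjusted p of 0.126.

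Beside the members stand ribosomal proteins outside the symbol rule, such as Fau and Rack1, and lists of other translation genes. The lists did not all resemble the members. On high-fat diet, 3 of 42 ribosome biogenesis genes and 3 of 27 initiation factor genes were called lower, against 1 of the 86 members. Fau, which encodes a fused small subunit protein, was at 114 ± 11.8, 107 ± 18.3 and 99.4 ± 33.9 CPM in the lean, HFD control and NM-FGF19 groups, and Rack1, a signalling scaffold on the small subunit, was at 296 ± 33.0, 270 ± 34.9 and 282 ± 57.5 (SD, n = 4). Neither was called in any comparison.

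In a list of 25 other mRNAs with a known TOP motif, Vim was called higher on high-fat diet, and the median change was -0.11. Vim, an intermediate filament gene of mesenchymal cells, was at 22.9 ± 3.05 CPM in lean and 79.9 ± 24.4 in HFD control livers (SD, n = 4) with no overlap, a change of 1.81 ± 0.35 (adjusted p = 0.012 by edgeR's quasi-likelihood test). Its call was lost without lean 3 and HFD control 3 together (1.72, adjusted p = 0.0675). The stellate marker sums given above ranged higher in the same group, and their part in the Vim change was not tested. The elongation factor genes Eef1a1 and Eef2 were at 3691 ± 411 and 2013 ± 84.4 CPM in lean, 2921 ± 216 and 1473 ± 155 in HFD control, and 2788 ± 404 and 1422 ± 148 in NM-FGF19 livers (SD, n = 4). Every HFD control liver lay below every lean liver for both, but neither was called (adjusted p = 0.201 and 0.0626 by edgeR's quasi-likelihood test). Tpt1 was at 569 ± 74.2, 527 ± 50.5 and 515 ± 73.5 CPM, and Npm1, a nucleolar chaperone, at 95.7 ± 3.25, 95.9 ± 5.07 and 76.6 ± 10.3. None of the 25 was called on treatment. Against lean, the NM-FGF19 livers had 1 call, Gas5, a host transcript of small nucleolar RNAs, with a log2 change of -0.63 ± 0.13 (adjusted p = 0.0321 by edgeR's quasi-likelihood test). The Gas5 call held without lean 1 (0.0356) or lean 3 (0.0496) and was lost without any of the other 6 libraries compared (0.0572 to 0.0943).

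Of 42 ribosome biogenesis genes, 3 were called lower on high-fat diet and none higher, with a median of -0.25 and 16 lower at an unadjusted p under 0.05. All 15274 genes had 3.29% called lower, a median of -0.02 and 1763 lower at an unadjusted p under 0.05. Heatr1, needed for rRNA transcription and processing, was at 27.3 to 36.9 CPM in lean and 14.4 to 24.6 in HFD control livers, a change of -0.73 ± 0.17 (adjusted p = 0.0234 by edgeR's quasi-likelihood test). Gnl2, a GTPase of large subunit assembly, was at 28.8 to 63.8 and 21.6 to 24.0 CPM, a change of -0.83 ± 0.21 (adjusted p = 0.0268). The other gene was Wdr43, named after its value was seen. The Heatr1 call did not survive leaving out lean 3 (0.063), lean 4 (0.0769), HFD control 1 (0.0741) or HFD control 3 (0.0636), nor the Gnl2 call leaving out HFD control 1 (0.0792), HFD control 3 (0.0692) or HFD control 4 (0.0582). Gnl2 fell by 0.50 on the log2 scale without lean 3 (adjusted p = 0.0331), the liver with its highest level. Without lean 3 and HFD control 3 together neither was called (adjusted p = 0.128 for Heatr1 and 0.07 for Gnl2). Ncl, the abundant nucleolar protein nucleolin, was at 177 ± 18.1, 156 ± 6.85 and 146 ± 4.37 CPM (SD, n = 4) and was not called. In NM-FGF19 livers none of the 42 was called against either group, with 19 lower against lean at an unadjusted p under 0.05, where 1158 of all 15274 genes were.

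Of 27 translation initiation factor genes, 3 were called lower on high-fat diet and none higher, where all genes had 3.29% called lower. The median was -0.20 against -0.02 over all genes, and 26 of 27 changes were below 0, against 52.5% of all genes. At an unadjusted p under 0.05, 11 of the 27 were lower, where 1763 of all 15274 genes were. Eif2s2, the beta subunit of eIF2, was at 48.3 to 56.4 CPM in lean and 39.6 to 41.4 in HFD control livers, a change of -0.38 ± 0.09 (adjusted p = 0.0261 by edgeR's quasi-likelihood test). Eif2b4, a subunit of its exchange factor, changed by -0.47 ± 0.13 (adjusted p = 0.0482), and Eif3g, named after its value was seen, was the other. The Eif2s2 call held without lean 1 (0.0313), lean 3 (0.0394) or HFD control 2 (0.0421) and was lost without any of the other 5 (0.0543 to 0.0873), and the Eif2b4 call held only without lean 1 (0.0475) or HFD control 2 (0.0378), the others giving 0.0762 to 0.143. Without lean 3 and HFD control 3 together their adjusted p-values were 0.0647 and 0.23. With library totals alone Heatr1, Gnl2, Eif2s2 and Eif2b4 all kept a negative sign and none was called. None of the 27 was called in NM-FGF19 livers against either group. Against lean, all 27 changes were nevertheless below 0, with a median of -0.24 (all genes -0.01). At an unadjusted p under 0.05, 13 were lower, where 1158 of all 15274 genes were. Against HFD control the median was 0.01.

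Of 26 genes of growth control upstream of the ribosome, 1 was called higher on high-fat diet, E2f1, and none lower, where all genes had 5.04% called higher and 3.29% lower. The median was -0.05. E2f1, a cell cycle transcription factor, was at 2.85 to 3.93 CPM in lean and 5.68 to 9.90 in HFD control livers, a change of 1.12 ± 0.21 (adjusted p = 0.0103 by edgeR's quasi-likelihood test), and it stayed called without any single library (0.00801 to 0.0285) and without lean 3 and HFD control 3 together (0.0409). Myc, the transcription factor best known for driving ribosomal protein genes, was at 5.49 ± 2.63, 7.48 ± 1.65 and 8.23 ± 4.47 CPM, and Eif4ebp1, a translational repressor that mTORC1 inactivates, at 57.2 ± 12.7, 50.03 ± 11.8 and 40.7 ± 9.63 (SD, n = 4), and neither was called. Of 77 mitochondrial ribosomal protein genes tested, a separate family for the ribosome inside mitochondria, none was called in any comparison, and their median diet change was -0.08. The median mitochondrial ribosomal gene stood from its group mean by 0.09 in NM-FGF19 4, 0.15 in HFD control 3, 0.14 in lean 4 and -0.19 in lean 3. Those values were nearer 0 than the cytosolic ones, but in HFD control 2, HFD control 4 and NM-FGF19 1 the mitochondrial family stood farther out (-0.17, 0.05 and -0.13, against -0.16, -0.03 and -0.06).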

How the data were processed

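Stranded mRNA libraries were prepared with an Illumina kit, with 100 ng of RNA as input, and read as pairs of 101 nt, per the labels' protocols. The authors deposited raw read counts per gene, made with Trimmomatic, STAR and featureCounts on mm39, per the submitters' processing notes. Their versions, annotation, strand mode and handling of shared reads: not given in the sources used here. All 12 columns were mapped by name and 0 were left over. Symbols were found for 52083 of 55359 IDs, and IDs without one held 0.515% of counts.

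The test was that of edgeR 4.0.16 under R 4.3.3 (TMM, filterByExpr with a minimum count of 10, robust quasi-likelihood F test, 2-sided, Benjamini-Hochberg over 15274 genes, threshold 0.05), with all 12 libraries in one fit and group as the only term. All 86 members passed the filter. SEs are those implied by F. Log2 CPM used a prior count of 2. Scripts were tested on simulated counts. The members, lists and tests were chosen with earlier results of these data known. Named members are the 4 at each end of the log2 changes in every comparison, at a mean of at least 10 CPM, plus a fixed set of 12 members and 10 other genes; from other lists, up to 2 called genes per direction. 1 of the other genes is not reported here. Alternatives were DESeq2 1.42.0, limma 3.58.1 voom, other scalings, filters and fits, a replicate block, and leaving out each library or, added after seeing the data, lean 3 with HFD control 3. Exon lengths and overlaps come from GENCODE M21 and start-site sequences from RefSeq (GRCm38.p6), joined by gene ID or symbol and never by coordinates. For genes of many counts, the count totals limit precision less than the spread between mice does. For genes of few counts, such as Rpl6l (122 over the 12 libraries) and Rps10 (954), counting noise can make up much of the spread. A floor of 3 counts was 0.0902 to 0.126 CPM.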

Additional observations from a re-analysis of the deposited data

Results flagged for a closer look

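Of 84 groups of 4 values examined with Dixon's ratio, 2 exceeded its 95% critical value, and chance gives about 1 in 20. Rps29 had a lean liver far below the others, with lean 3 at 39.2 CPM against 58.5 to 60.2 in the other lean livers and a ratio of 0.931. Without lean 3 the diet change of Rps29 was 0.18 (adjusted p = 0.448 by edgeR's quasi-likelihood test). Rps6 had an HFD control liver above the others, with HFD control 3 at 97.7 CPM against 81.4 to 82.3 and a ratio of 0.938.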

How the results depend on the processing

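The count of members called lower on high-fat diet, 1 with the settings reported, was 0 with library totals alone, with family scaling, without a low-count filter, with only the 2 groups compared, with limma voom and without lean 3 and HFD control 3 together. The count called higher on high-fat diet was 2 with library totals alone (Rps4l and Rps29), and the count called higher in NM-FGF19 against lean was 1 with library totals alone (Rps4l), with DESeq2 (Rps4l) and with family scaling (Rpl22l1). The member median of the diet comparison was 0.15 with library totals alone. Leaving out each library gave diet medians of -0.24 to -0.06, treatment medians of -0.16 to 0.10 and NM-FGF19 against lean medians of -0.31 to -0.05, with 0 to 1 members called lower on diet and 0 in the 5 other counts. Group means of the family share ranged from 0.953 to 1.11% in lean, 1.03 to 1.15% in HFD control and 0.905 to 1.11% in NM-FGF19 livers. Counted without the 20 genes of highest share, the means were 1.36, 1.39 and 1.40%. The cause of these differences was not tested.

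Diet changes that turned positive with library totals alone were 0.18 for Rpl22, 0.28 for Rpl22l1, 0.27 for Rpl3, 0.16 for Rpl36a, 0.14 for Rplp0, 0.0699 for Rps18, 0.086 for Rps27l, 0.19 for Rps6 and 0.0370 for Rpsa. With family scaling they were 0.0707 for Rpl22, 0.16 for Rpl22l1, 0.16 for Rpl3, 0.0377 for Rpl36a, 0.0181 for Rplp0 and 0.0778 for Rps6. Without lean 3 and HFD control 3 the diet changes of Rpl11 and Rpl31 became -0.0912 and -0.0542, and the treatment changes of Rpl11, Rplp0 and Rps19 became 0.000895, 0.0381 and 0.0599. Leaving out single libraries, the diet change ranged from -0.16 to 0.13 for Rpl22l1, -0.0722 to 0.0235 for Rpl3, -0.0394 to 0.12 for Rpl11 and -0.00488 to 0.19 for Rpl31. The treatment change ranged from -0.20 to 0.0143 for Rpl11, -0.13 to 0.0445 for Rplp0, -0.43 to 0.0649 for Rps19 and -0.33 to 0.42 for Rpl41. Over all genes the calls in the 3 comparisons, 1272, 66 and 228, were 2220, 285 and 969 with DESeq2. They were 892, 38 and 117 with only the 2 groups compared, 1079, 51 and 112 with limma voom, 2609, 56 and 398 with library totals, 1303, 50 and 447 with family scaling, and 480, 38 and 229 without lean 3 and HFD control 3.

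With the replicate number as a block, 0 members were called lower on diet (Rpl36al adjusted p = 0.0876 by edgeR's quasi-likelihood test) and all-gene calls were 593, 18 and 40. No pairing of the mice by number was seen, since 0 of 12 same-numbered pairs deviated together with a correlation above 0.1. Only 2 of 24 checks found a library closest to its own number. These checks cannot exclude a shared cage or extraction day, which the labels do not give.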
